A study of Mus musculus with 8 samples.

Results

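The genes described here are 10 genes of fatty acid uptake and binding, read from a count table of 34866 genes: Fabp4 and Fabp5, which bind fatty acids in the cytoplasm, Lpl, Gpihbp1, Angptl4 and Vldlr of the lipoprotein lipase system, and Cd36, Slc27a1, Slc27a4 and Acsl1, which take fatty acids into the cell and activate them. They were taken by name, though the choice was made with earlier results of these data known. All 10 were in the table and passed the low-count filter that left 12480 genes. The libraries came from epididymal white adipose tissue of male mice, 4 with the genotype Aromatase flox/flox (control) and 4 with aP2-Cre;Aromatase flox/flox (knockout). Both genotypes therefore carry floxed copies of Cyp19a1, the aromatase gene, whose enzyme turns androgens into oestrogens, and they differ by the Cre transgene. The age and strain of the mice are not given in the sources used here. The transgene is driven by the promoter of Fabp4, itself one of the genes described here and one that macrophages and capillary endothelium can also express, so Cre need not be limited to fat cells. Mice with Cre and without the floxed gene were not analysed here. The stated purpose of the study was to find genes through which adipose Cyp19a1 acts on phosphorus metabolism.

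Fat cells take up most of their fatty acids from circulating lipoproteins. Lipoprotein lipase is made in the fat cell, is carried across the capillary wall and held on its inner face by GPIHBP1, and releases fatty acids from triglyceride; ANGPTL4 inactivates it. The fatty acids then enter the cell with the help of CD36 and the SLC27 transport proteins, are joined to coenzyme A by acyl-CoA synthetases such as ACSL1, and are carried by fatty acid binding proteins. Many of these genes are targets of PPARG, the main transcription factor of the fat cell.

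Each library held 1538427 to 3053565 estimated counts, and the totals of the genotypes overlapped (two-sided exact permutation p = 0.6, smallest possible 0.0286). The targeted gene Cyp19a1 had 1 to 5.017 estimated counts per control library and 0 to 4 per knockout library, too few to check the deletion. All 16 adipocyte markers were detected in the tissue, among them Adipoq at 2109.7 to 3814.4 CPM (estimated counts scaled to a common library total), whereas 6 epididymis markers summed to 1.63 to 12.3 CPM and 3 of them, Crisp1, Lcn5 and Lcn8, were at 0 in every library. The sum of 19 macrophage markers was 1404 to 1591 CPM in controls and 2359 to 2764 CPM in knockouts, and 18 of the 18 tested were higher, 7 of them with an edgeR adjusted p under 0.05. The whole list, with those 7 (Mmp12, Ctss, Lyz2, Lgals3, Lipa, Gpnmb and Cd68), had been drawn up with earlier results of these data known. Neither count is therefore independent of the data. The 16 adipocyte markers summed to 26254 to 35718 CPM in controls and 20419 to 32250 CPM in knockouts, with 13 lower and none past the adjusted threshold. Cfd alone averaged 13121 CPM of the sum in controls and 10057 CPM in knockouts. Retn, at means of 2392 and 1528 CPM, was the only one of the 16 without overlap (edgeR adjusted p = 0.0731), where 4.24% of all genes had none. The 15 endothelial markers summed to 1231 to 2001 and 1613 to 1894 CPM, with 10 higher and none past the threshold. No marker of these 3 lists was at 0 in all libraries. Stromal markers (10 genes) summed to 8897 to 9125 CPM in controls and 7725 to 8795 CPM in knockouts, with 7 higher and 3 lower. Gsn alone averaged 5423 CPM of that sum in controls and 4476 CPM in knockouts. With controls first, mesothelial markers (6) summed to 67.4 to 142 and 82.3 to 149.5 CPM. Blood markers (5, the haemoglobin genes and Alas2) summed to 2992 to 6640 and 2851 to 4846 CPM. Skeletal muscle markers (6) summed to 11.5 to 26.0 and 16.3 to 68.2 CPM, and lymphocyte markers (8) to 10.7 to 19.3 and 7.29 to 28.5 CPM. None of the 10 stromal, 6 mesothelial, 5 blood and 1 skeletal muscle markers that were tested passed the adjusted threshold. The other 5 skeletal muscle and all 8 lymphocyte markers were too low to be tested. Mitochondrial genes took 10.7% to 12.4% of the counts of control and 8.71% to 10.1% of those of knockout libraries. In whole tissue, fewer cells of a type and less RNA per cell cannot be told apart, and the part that these cell types have in the values below was not tested.

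No difference between the genotypes was detected for the fatty acid uptake and binding genes. Of the 10, 0 had an adjusted p under 0.05 in edgeR's quasi-likelihood test, the smallest being 0.701, while 0.168% of all genes tested passed. One gene, Acsl1, was lower with an unadjusted edgeR p under 0.05, which is 1 of 10 where 2.87% of all genes were lower and 6.39% differed in either direction at that level. The ranges of the 2 genotypes overlapped for each of the 10 genes, whereas 4.24% of all genes had no overlap. DESeq2 and limma-voom also called 0 of the 10, each with Acsl1 alone under an unadjusted p of 0.05 (smallest adjusted p of the 10, 0.854 and 0.565). The median log2 fold change (knockout over control) was -0.04, against -0.00 over all genes tested. It turned to 0.06 without control replicate 3 (3 of 10 genes lower) and 0.04 without knockout replicate 3 (4 lower), and was -0.13 without control replicate 4 (10 lower). For 9 of the 10 genes the genotype means in CPM differed by less than the smaller of the SDs of the 2 groups; Acsl1 was the exception.

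**Figure D1:**
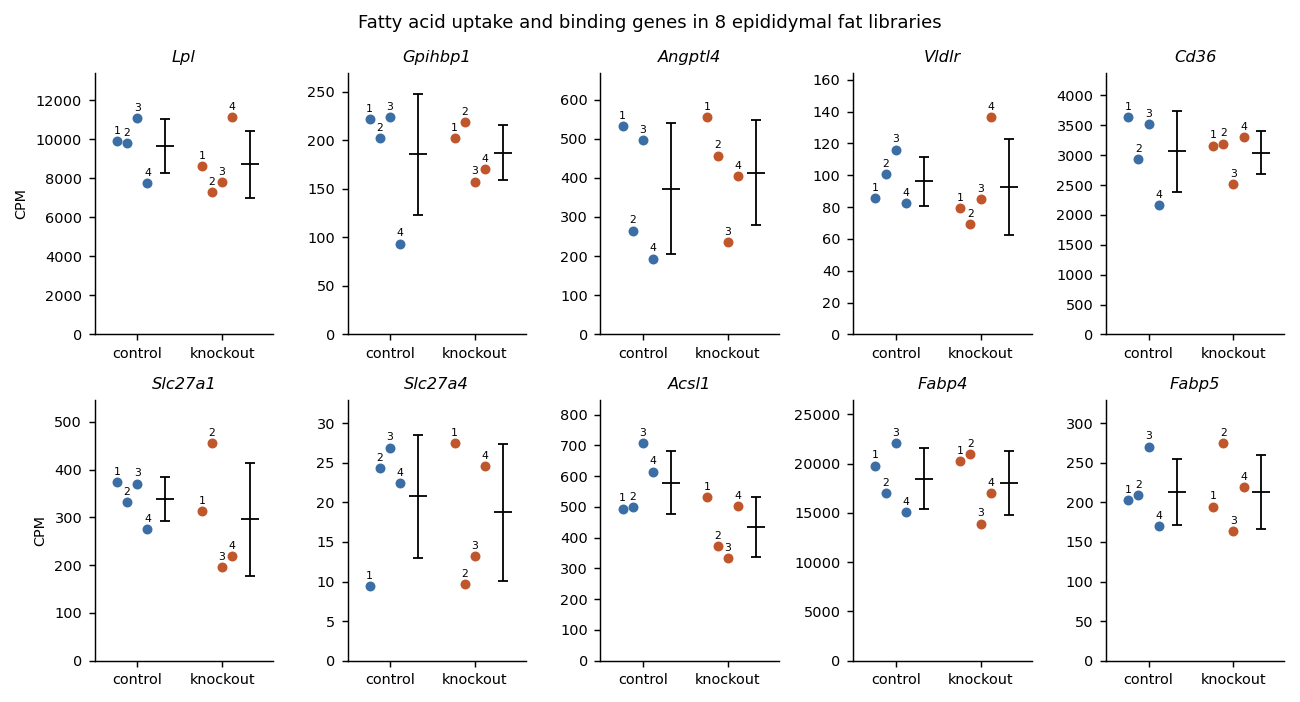
CPM of each of the 10 genes in the 8 libraries (points, numbered by replicate; blue control, orange knockout), with the mean and SD of each group as a bar beside the points. The groups overlap in every panel, and control replicate 4 is the lowest control library in 8 of the 10 panels.

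Fabp4 encodes the adipocyte fatty acid binding protein, also called aP2, and its promoter drives the Cre transgene. The endogenous gene (chromosome 3, 10204088 to 10208576, minus strand, GRCm38) was at 19803, 16975, 22092 and 15049 CPM in control replicates 1 to 4 and at 20280, 20986, 13926 and 17038 CPM in knockout replicates 1 to 4. The highest library was a control, while the lowest and the next 2 after the highest were knockouts, so the groups overlapped widely. The means were 18480 ± 3100 CPM in controls and 18058 ± 3247 CPM in knockouts (SD, n = 4). The log2 fold change was -0.03 (standard error 0.156, edgeR adjusted p = 0.988), and it turned positive when control replicate 1, control replicate 3 or knockout replicate 3 was left out. Its 95% interval ran from -0.37 to 0.30, which spans folds of 0.775 to 1.23. Fabp4 took 1.78% ± 0.232 of the counts of a control library and 1.83% ± 0.312 of those of a knockout library (SD, n = 4).

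Fabp5 encodes the epidermal fatty acid binding protein, which macrophages also make. It lies close to Fabp4 (chromosome 3, 10012548 to 10016607, plus strand). It was at 202, 209, 270.2 and 169.5 CPM in control replicates 1 to 4 and at 194.6, 274.7, 163.4 and 218.7 CPM in knockout replicates 1 to 4. The lowest and the highest library were both knockouts. The means were equal to 3 digits, at 213 ± 42.0 and 213 ± 47.1 CPM (SD, n = 4). The 95% interval of the log2 fold change was -0.37 to 0.36 (edgeR adjusted p = 0.999).

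Since these libraries were read with 51 bases per insert, it matters whether reads of the paralogs can be told apart. The coding sequences of Fabp4 and Fabp5, 396 and 405 bases long without the stop codon, are identical at 61.9% of the 396 aligned bases, and the annotated transcripts of the pair share 0 words of 31 bases. Exon 2, which is coding throughout and 173 bases long in both genes, shows how the pair differs. It lies at chr3:10205950-10206122 (minus strand) for Fabp4 and chr3:10014971-10015143 (plus strand) for Fabp5, and capitals mark the 70 bases that differ between them. The third sequence is the stretch of the processed pseudogene Gm6166 (chr9:57484042-57484214, plus strand) that aligns to exon 2 of Fabp5, with its 1 difference from Fabp5 in capitals.
Fabp4: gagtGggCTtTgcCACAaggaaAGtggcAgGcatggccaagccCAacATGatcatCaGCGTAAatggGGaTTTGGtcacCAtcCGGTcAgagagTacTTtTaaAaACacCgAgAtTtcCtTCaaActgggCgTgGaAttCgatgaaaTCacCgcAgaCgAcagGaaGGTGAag
Fabp5: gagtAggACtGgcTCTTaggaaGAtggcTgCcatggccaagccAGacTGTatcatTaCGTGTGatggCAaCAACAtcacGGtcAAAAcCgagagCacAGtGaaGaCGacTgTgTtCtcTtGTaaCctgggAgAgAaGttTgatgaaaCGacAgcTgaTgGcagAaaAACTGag
Gm6166: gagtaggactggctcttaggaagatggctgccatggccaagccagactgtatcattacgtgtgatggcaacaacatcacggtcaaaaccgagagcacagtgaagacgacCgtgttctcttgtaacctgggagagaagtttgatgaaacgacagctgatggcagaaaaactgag
Gm6166 is identical to Fabp5 at 400 of 405 aligned coding bases, so the division between those 2 of reads that fall there is uncertain. The libraries read the 3' ends of transcripts, and where the reads lie along these genes was not examined. Gm6166 received 10.6 and 17.6 estimated counts in control replicates 3 and 4, 43.8 in knockout replicate 3 and 0 in the other 5 libraries, against 264 to 681 per library for Fabp5. In all, 9.16% of the 31-base words of Fabp5 occur in another gene of the table, and at most 2.96% for each of the other 9 genes.

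Lpl encodes lipoprotein lipase (chromosome 8, 68880491 to 68907448, plus strand). It was at 9889, 9806, 11087 and 7751 CPM in control replicates 1 to 4 and at 8626, 7284, 7819 and 11145 CPM in knockout replicates 1 to 4. The highest library was a knockout, and the next 3 were controls. The means were 9633 ± 1385 and 8718 ± 1709 CPM (SD, n = 4). The log2 fold change was -0.14, with a 95% interval of -0.47 to 0.18 (edgeR adjusted p = 0.939). The sign held in all 15 alternative fits, between -0.285 and -0.067.

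Gpihbp1 encodes the endothelial protein that holds the lipase in the capillary (chromosome 15, 75596628 to 75599481, plus strand). It was at 221.9, 202.1, 224.3 and 93.6 CPM in control replicates 1 to 4 and at 201.9, 219.1, 157.5 and 170.5 CPM in knockout replicates 1 to 4. Control replicate 4 was below all other libraries, while the other 3 controls each lay above at least 3 of the 4 knockouts. The log2 fold change was 0.01 with a 95% interval of -0.55 to 0.56 (edgeR adjusted p = 0.999), and without control replicate 4 it was -0.209 (edgeR adjusted p = 0.79). In that library the endothelial markers were low as well, at a sum of 1231 CPM, whereas control replicates 1 to 3 stood at 1768 to 2001 CPM. The markers differed in degree. Cldn5, a tight junction gene of endothelium, was at 48.1 CPM against 145.8 to 183.1, and Erg at 25.0 CPM against 28.45 to 30.5. Kdr (89.75 CPM) and Sox17 (14.74 CPM) were above control replicate 3 (71.31 and 13.9 CPM). Relative to the mean log2 CPM of the 15 endothelial markers, Gpihbp1 was at 0.82 in control replicate 4 and at 1.09 to 1.54 in the other 7 libraries. The part of endothelial content in the value of this library was not tested.

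Angptl4, whose product inactivates the lipase and which rises in fat on fasting (chromosome 17, 33773750 to 33781830, minus strand), varied widely. It was at 531, 265.3, 497 and 193.6 CPM in control replicates 1 to 4 and at 556, 457, 236.2 and 405.3 CPM in knockout replicates 1 to 4. Each group thus held libraries near the top and near the bottom of the whole range. The SD was 45.1% of the mean in controls and 32.3% in knockouts; the average of these, 38.7%, was above that of 97.9% of the 1719 tested genes with a mean of at least 100 CPM, for which the median was 11.6%. Its log2 fold change was 0.15, with the widest interval of the 10 genes, -0.77 to 1.07 (edgeR adjusted p = 0.982). It turned negative without control replicate 4 (-0.063) and without knockout replicate 1 (-0.026). This was the only gene of the 10 whose interval reached beyond a 2-fold difference.

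Vldlr encodes a receptor that binds triglyceride-rich lipoproteins (chromosome 19, 27216484 to 27254231, plus strand). It was at 85.6, 100.8, 116.2 and 82.7 CPM in control replicates 1 to 4 and at 79.2, 69.4, 84.9 and 136.8 CPM in knockout replicates 1 to 4. As with Lpl, knockout replicate 4 was the highest library of all, while the other 3 knockouts lay below 3 of the 4 controls. For Vldlr, the log2 fold change was -0.05 with a 95% interval of -0.49 to 0.38 (edgeR adjusted p = 0.985), and -0.31 without knockout replicate 4.

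**Figure D2:**
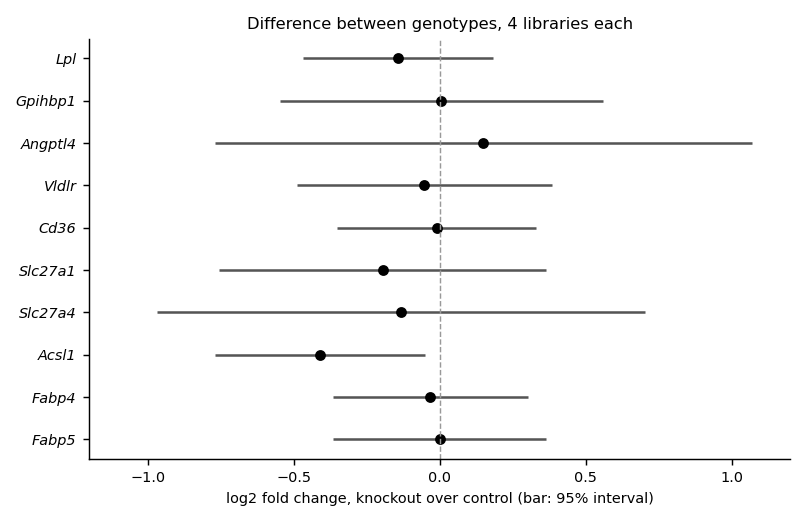
Log2 fold change (knockout over control) of the 10 genes as points, with 95% intervals as bars, from the edgeR fit of all genes. The interval of Acsl1 alone lies below 0, and that of Angptl4 is the widest.

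Cd36 encodes the fatty acid translocase of fat cells, capillary endothelium and macrophages (chromosome 5, 17781690 to 17888801, minus strand). It was at 3643, 2939, 3519 and 2161 CPM in control replicates 1 to 4 and at 3161, 3195, 2517 and 3298 CPM in knockout replicates 1 to 4. The 4 knockout libraries all lay between the lowest and the highest control library. The means were 3066 ± 676 and 3043 ± 355 CPM (SD, n = 4), and the log2 fold change of -0.01 had a 95% interval of -0.35 to 0.33 (edgeR adjusted p = 0.998). The sign was not stable: it was negative in 11 of 15 alternative fits and positive in the other 4.

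PPARG acts on its targets as a heterodimer that reads a pair of AGGTCA motifs separated by 1 base. RefSeq windows of the 250 bases before an annotated start (GRCm38.p6) were matched for 5 of the 10 genes, Cd36, Acsl1, Slc27a1, Slc27a4 and Vldlr, in 9 windows, and not for Fabp4, Fabp5, Lpl, Gpihbp1 and Angptl4. Searched on both strands, AGGTCA occurred in 1 of these 9 windows, that of Cd36, and in 14.02% of all 32851 windows. The full pair, AGGTCANAGGTCA, which contains the shorter motif, occurred in none of the 9 and in 0.03% of all windows. The Cd36 window is shown because it is the one that holds the motif; it lies at chr5:17835897-17836146 on the minus strand, and capitals mark the match, which is on the opposite strand and begins 228 bases before the start. A match of letters is a description, not a binding site.
Cd36: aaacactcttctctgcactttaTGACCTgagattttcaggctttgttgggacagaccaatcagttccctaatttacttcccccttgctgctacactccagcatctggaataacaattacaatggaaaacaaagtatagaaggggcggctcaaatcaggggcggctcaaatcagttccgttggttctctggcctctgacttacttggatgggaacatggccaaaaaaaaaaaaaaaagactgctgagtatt

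Slc27a1 encodes the insulin-responsive transport protein FATP1 (chromosome 8, 71568882 to 71587302, plus strand). It was at 374, 332, 371 and 276.1 CPM in control replicates 1 to 4 and at 314, 456, 195.3 and 219.2 CPM in knockout replicates 1 to 4. The knockout libraries held both the highest and the 2 lowest values, and their SD of 118 CPM was above the 45.5 CPM of the controls. Its log2 fold change was -0.20 with a 95% interval of -0.75 to 0.36 (edgeR adjusted p = 0.946). It was negative in all 15 alternative fits, the extremes being -0.482 without knockout replicate 2 and -0.041 without knockout replicate 3. The former had an unadjusted edgeR p of 0.0155 and an adjusted p of 0.808.

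Slc27a4 encodes FATP4, another member of the same transport family (chromosome 2, 29802634 to 29817522, plus strand). It rested on 24 to 75 estimated counts per library, the lowest depth among the 10 genes. It was at 9.43, 24.3, 26.9 and 22.4 CPM in control replicates 1 to 4 and at 27.5, 9.68, 13.2 and 24.6 CPM in knockout replicates 1 to 4. Both groups spanned nearly the same range, and the 95% interval of the log2 fold change ran from -0.97 to 0.70 around -0.13 (edgeR adjusted p = 0.982).

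Acsl1 encodes the main long-chain acyl-CoA synthetase of fat cells, which commits fatty acids to further use in the cell (chromosome 8, 46471037 to 46536051, plus strand). It was at 494.2, 498, 707 and 615 CPM in control replicates 1 to 4 and at 532, 373, 334 and 501 CPM in knockout replicates 1 to 4. The 2 highest libraries were controls and the 2 lowest knockouts, while the 4 in between were mixed. The means were 579 ± 102 and 435 ± 96.5 CPM (SD, n = 4). This gave a log2 fold change of -0.41 (standard error 0.167) and a 95% interval of -0.77 to -0.05. The unadjusted edgeR p was 0.0278 and the adjusted p 0.701, so it did not pass. The difference was negative in each of 15 alternative fits, from -0.519 to -0.296, with adjusted p-values of 0.466 to 0.977. The unadjusted p rose above 0.05 when control replicate 3, control replicate 4, knockout replicate 2 or knockout replicate 3 was left out, to 0.109, 0.0645, 0.0845 and 0.0899 in that order.

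The values were also set against the adipocyte markers of each library. The scale was the log2 CPM of a gene minus the mean log2 CPM of the 16 markers. It weighs each marker alike, from Cidea at 1.61 to 7.05 CPM to Cfd at 5499 to 17987 CPM, and need not follow fat cell content. On that scale 8 of the 10 genes had a higher and 2, Acsl1 and Slc27a1, a lower mean in knockouts, and the groups overlapped for all 10; Slc27a4, counted as higher, was at -5.14 in both groups. Relative to the 15 endothelial markers, 9 had a lower and 1 a higher mean, again with overlap for all 10. Relative to the macrophage markers, all 10 had a lower mean and 7 did not overlap. Those markers were themselves higher in knockouts, which shifts every gene downward there on this scale. The share of all genes without overlap on it was not computed, so the count says nothing particular to these 10. The direction of the tally thus differed with the marker list. Relative to the adipocyte markers, Acsl1 was at -0.31 ± 0.32 in controls and -0.57 ± 0.15 in knockouts (SD, n = 4). Fabp4 was at 4.69 ± 0.12 and 4.81 ± 0.29, and Lpl at 3.75 ± 0.11 and 3.76 ± 0.19.

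**Figure D3:**
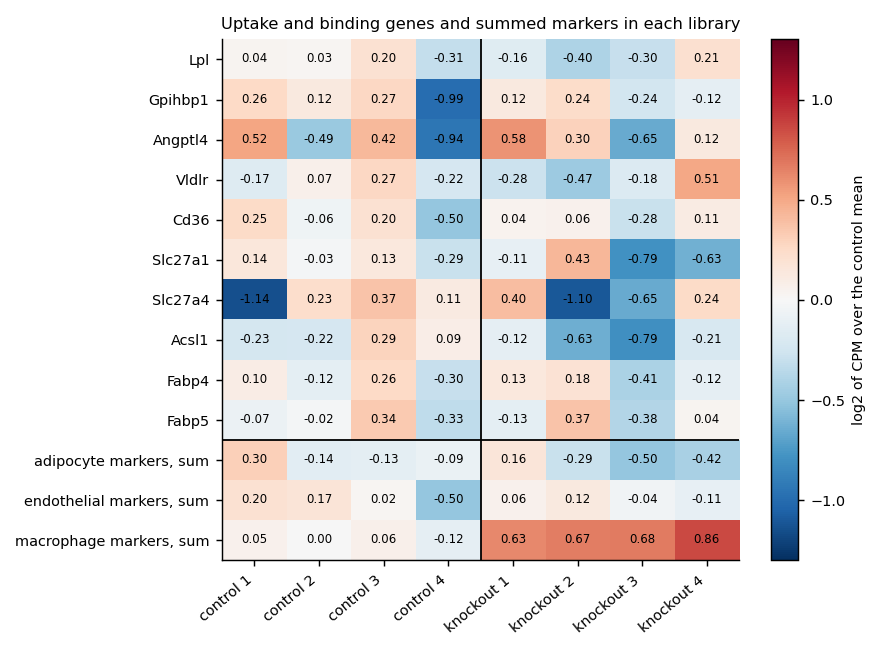
Log2 of CPM over the control mean for the 10 genes and for the summed adipocyte, endothelial and macrophage markers (rows) in the 8 libraries (columns); blue is below and red above the control mean. The macrophage row is between 0.63 and 0.86 in knockouts, but that list was drawn up with earlier results of these data known. Of the 10 genes, only Acsl1 has the same sign in all 4 knockouts.

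Single libraries stood low or high across many of the genes. Among the controls, replicate 4 was lowest for 8 of the 10 genes, the exceptions being Slc27a4 and Acsl1, and replicate 3 was highest for 7. Among the knockouts, replicate 3 was lowest for 7 genes, the exceptions being Lpl, Vldlr and Slc27a4. Control replicate 4 was also the smallest library, at 1538427 estimated counts, while knockout replicate 3 held 2460565. The summed adipocyte markers were lowest of all 8 in knockout replicate 3, at 20419 CPM, and stood at 27204 CPM in control replicate 4. Cfd alone gave 13941 CPM of the sum in control replicate 4. The markers other than Cfd, Dgat2, Cidea, Adrb3, Thrsp and Rbp4 were each lowest of the controls in that library. The part of fat cell content in the order of the libraries was not tested.

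The genes followed Fabp4 and Lpl to different degrees over the 8 libraries. Pearson's r of log2 CPM with Fabp4 was 0.888 for Angptl4, 0.819 for Fabp5, 0.815 for Slc27a1, 0.814 for Cd36 and 0.75 for Gpihbp1, but 0.311 for Lpl and -0.03 for both Vldlr and Slc27a4. With Lpl it was 0.88 for Vldlr and 0.623 for Cd36, and -0.04 for Slc27a1. Outside the genes and lists used here, the closest to Fabp4 among 7334 genes of at least 20 CPM were Fam213a (0.977), Fcgrt (0.971), Commd8 (0.959), Ncbp3 (0.955) and Opn3 (0.94). The closest to Lpl were Ube2g1 (0.963), Ptgs1 (0.96), Mpv17l2 (0.958), Aifm2 (0.957) and Mrps23 (0.955). These values describe 8 points that share their library scaling, and the closest of so many genes are high by selection; they were not tested.

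**Figure D4:**
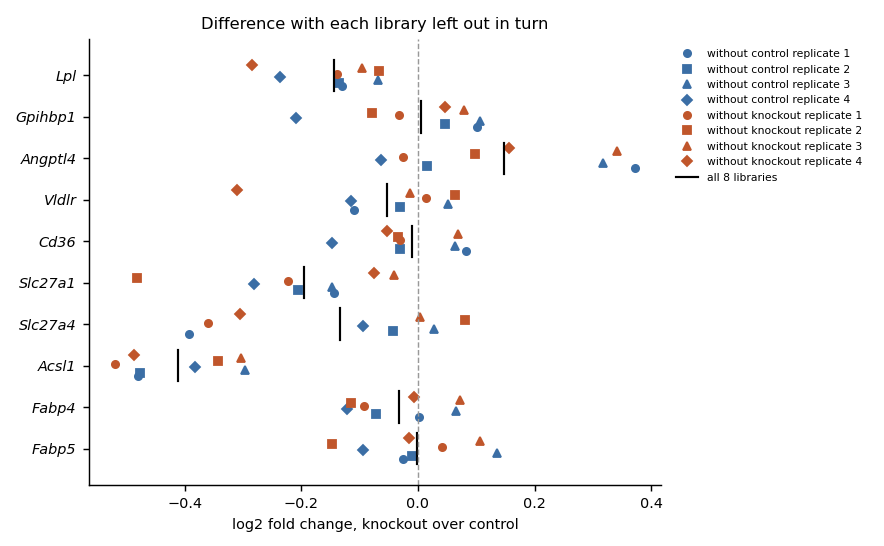
Log2 fold change (knockout over control) of the 10 genes with all 8 libraries (black line) and with each library left out in turn (symbols; blue, a control left out; orange, a knockout left out). Acsl1, Slc27a1 and Lpl stay below 0 throughout, and the other 7 genes cross it.

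The wider pathway was read from 65 further genes, of which 46 passed the low-count filter, 21 with a higher and 25 with a lower estimate in knockouts. None had an edgeR adjusted p under 0.05 and 5 of the 46 had an unadjusted p under 0.05, where 6.39% of all genes did. The median log2 fold change was -0.06, and between -0.07 and 0.01 over the alternative fits. Of 14 tested genes on the lipoprotein side, 9 were higher and 5 lower. Sdc1, a heparan sulphate proteoglycan that can bind lipoproteins, was at 8.33 to 14.4 CPM in controls and 14.7 to 22.3 CPM in knockouts, with no overlap (log2 fold change 0.70, edgeR adjusted p = 0.603). Of the 46 genes, only Sdc1 and Srebf1 had no overlap, where 4.24% of all genes tested had none. Sel1l, needed for the lipase to leave the endoplasmic reticulum, was at 105 ± 6.25 and 126 ± 16.4 CPM (SD, n = 4), which overlapped (edgeR log2 fold change 0.27, adjusted p = 0.758). Lmf1, the lipase maturation factor, was at 25.8 ± 6.07 and 29.5 ± 6.55 CPM (SD, n = 4; edgeR adjusted p = 0.939).

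Of 14 tested genes of transport and activation, 6 were higher and 8 lower. Cav2, a caveolin that forms caveolae together with Cav1, was at 758.5, 761.5, 725.7 and 388.5 CPM in control replicates 1 to 4 and at 414, 394, 381 and 513 CPM in knockout replicates 1 to 4. Control replicates 1 to 3 lay above all 4 knockouts, and control replicate 4 lay among them. The log2 fold change was -0.63 (edgeR adjusted p = 0.498), and without control replicate 4 it was -0.815 with an adjusted p of 0.00474, the only fit in which a pathway gene passed. Control replicate 4 is also the library with low Gpihbp1 and an endothelial marker sum of 1231 CPM. Most, though not all, adipocyte markers were lowest of the controls there as well. In knockouts the endothelial sum was 1613 to 1894 CPM. The part of endothelial or fat cell content in these Cav2 values was not tested. Cav1 was at 2524 ± 414 and 2352 ± 327 CPM (SD, n = 4; edgeR adjusted p = 0.949).

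Of 6 tested binding genes, 3 were higher and 3 lower. Scp2, a sterol carrier protein that also binds acyl-CoA, was at 410 to 574 CPM in controls and 296 to 457 CPM in knockouts, which overlapped (log2 fold change -0.40, edgeR adjusted p = 0.678). Of 12 tested regulators, 3 were higher and 9 lower. Srebf1, which drives genes of fatty acid synthesis, was at 188 to 235 CPM in controls and 133 to 181 CPM in knockouts (log2 fold change -0.38, edgeR adjusted p = 0.507). These ranges did not overlap, which held for 4.24% of all genes tested. Pparg was at 226 ± 26.8 and 192 ± 8.11 CPM (SD, n = 4), with an edgeR log2 fold change of -0.23 (adjusted p = 0.802).

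**Figure D5:**
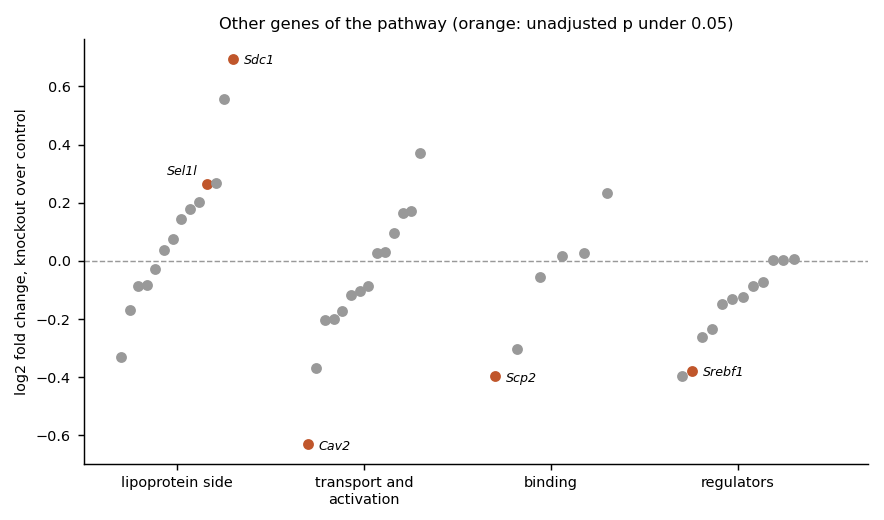
Log2 fold change (knockout over control) of the 46 other pathway genes tested, as points grouped by role; orange points are the 5 genes with an unadjusted edgeR p under 0.05. Genes lie on both sides of 0 in every group, and none passed after adjustment over all genes.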

How the data were processed

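Per the labels' protocols, total RNA was turned into BRB-seq libraries, in which oligo-dT priming and Tn5 tagmentation read the 3' ends of transcripts. The authors deposited a table of estimated counts that are not all whole numbers; Salmon and GRCm38 are named in the submitters' processing notes, and versions, annotation and use of molecular identifiers are not given in the sources used here. Identifiers were matched without version to GENCODE M21 (34652 of 34866), which gave positions. Symbols came from a separate list of gene names (34582 genes), with the GENCODE name where that list had none. The design was written for estimated counts, which were rounded and tested across all genes with edgeR 4.0.16 (robust quasi-likelihood, genotype only, TMM, filterByExpr) in R 4.3.3, with Benjamini-Hochberg adjustment over 12480 genes. CPM used TMM-scaled totals; log2 CPM used a prior count of 2; 95% intervals used standard errors derived from the F statistic. A count of 0 allows up to 3 counts (0.984 to 1.92 CPM), for counting error only. Alternative fits used RLE or upper-quartile factors, all genes without a filter, DESeq2 1.42.0, limma-voom with quality weights (limma 3.58.1), the replicate block, each library left out, and, added after seeing the data, a fit without genes whose transcripts hold 31 or more A in a row; the 10 genes hold runs of at most 21. Exact tests used scipy 1.17.1 and alignments Biopython 1.88.

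Named genes are the 10 members, pathway genes with an unadjusted p under 0.05 (at most 6 in each direction), the 5 genes most like Fabp4 and Lpl, Cyp19a1 and leading markers. Other genes were named after their values were seen (Cldn5, Erg, Kdr, Sox17, Lmf1, Cav1, Pparg, and the markers listed by name). Members and lists were chosen with earlier results of these data known. Replicates within a group differed by 4.48 to 9.4 in chi-square per degree of freedom, so no library appeared in duplicate. The labels do not say that libraries come from separate animals, and p-values measure the spread between these libraries, which may be technical.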

Additional observations from a re-analysis of the deposited data

Results flagged for a closer look

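The values below were picked out because the highest or lowest of 4 libraries was separated from its neighbour by more of the group's range than Dixon's 95% critical value. Chance picks about 1 in 20 groups, which is 1.8 of the 36 looked at, and 3 were found. Gpihbp1 was at 93.6 CPM in control replicate 4, against 202.1, 221.9 and 224.3 CPM in the other control libraries. Its share, 0.83, only just passed. Cav2 was at 388.49 CPM in the same library, against 725.7, 758.5 and 761.5 CPM (share 0.904). The summed adipocyte markers were at 35718 CPM in control replicate 1, against 26254, 26492 and 27204 CPM in the other control libraries (share 0.9). Cfd alone gave 17987 CPM of the sum in control replicate 1.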

How the results depend on the processing

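None of the 10 genes passed an adjusted p of 0.05 in any of the 15 alternative fits, and the number with an unadjusted p under 0.05 was 0 or 1. Over all genes, 21 passed; this was 58 without the low-count filter, 53 with DESeq2 and 4 to 43 with 1 library left out (4 without control replicate 2, 43 without control replicate 4). With the replicate block 6 passed. Deviations of same-numbered libraries correlated at 0.355, -0.135, -0.028 and -0.246, and 1 of 4 control libraries correlated best with its own number. These 4 values do not show a pairing and cannot exclude one. Of the other pathway genes, 0 to 1 passed with 1 library left out. Of 150 values of the 10 genes under an alternative, 126 kept the sign of the log2 fold change and 24 did not. Without 1 library the value ran from -0.209 to 0.106 for Gpihbp1, -0.063 to 0.372 for Angptl4, -0.31 to 0.063 for Vldlr, -0.147 to 0.082 for Cd36, -0.393 to 0.08 for Slc27a4, -0.121 to 0.072 for Fabp4 and -0.147 to 0.136 for Fabp5. The sign also turned for Gpihbp1 with upper-quartile factors (-0.003) and limma-voom (-0.006), for Cd36 with the replicate block (0.009) and for Fabp5 with RLE factors (0.000). These values are near 0 and the cause of the turns was not tested.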
